A study of Danio rerio with 75 samples.

Results

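Glycolysis is the cytosolic pathway that splits glucose into pyruvate, and 10 of its genes were followed here in brain, liver and skin of ageing male zebrafish (Danio rerio). The genes were taken by symbol from the gene count table, in which all 10 were found among 32677 rows: aldoaa (ENSDARG00000011665) and aldoab (ENSDARG00000034470), which encode aldolase A, tpi1a (ENSDARG00000025012) and tpi1b (ENSDARG00000040988) for triosephosphate isomerase, gapdh (ENSDARG00000043457) and gapdhs (ENSDARG00000039914) for glyceraldehyde-3-phosphate dehydrogenase, pgk1 (ENSDARG00000054191) for phosphoglycerate kinase, eno1a (ENSDARG00000022456) for enolase, pkma (ENSDARG00000003933) for pyruvate kinase and ldha (ENSDARG00000040856) for lactate dehydrogenase A. The RNA-seq libraries fell into 15 groups of a tissue and an age of 6, 12, 24, 36 or 42 months, with 5 libraries each apart from the livers of 6 and 12 months, which had 4. The fish carried the label AB JxTu at every age. In the grouped libraries, fish of 12 months were Tg(flk:mCherry), fish of 36 months Tg(pu.1:GFP) and fish of 42 months Tg(wt1a:GFP). At 6 and 24 months these libraries listed no transgene. Age and transgenic line therefore cannot be told apart at 12, 36 and 42 months. The comparison of 24 with 6 months is the one between grouped libraries with no listed transgene. A further 2 libraries, of 6 and 12 months and left out of the groups, listed Tg(wt1a:GFP). By fish number they share fish with grouped libraries of skin at 6 months and brain at 12 months. Each library came from 1 fish, except that the label of each brain library of 6 months joins the numbers of 2 fish, a pool.

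In the pathway, aldolase cleaves fructose 1,6-bisphosphate into 2 triose phosphates, which triosephosphate isomerase interconverts. Glyceraldehyde-3-phosphate dehydrogenase then makes the intermediate from which phosphoglycerate kinase forms ATP, enolase makes phosphoenolpyruvate, pyruvate kinase makes pyruvate and a further ATP, and lactate dehydrogenase turns pyruvate into lactate while restoring NAD+. Teleost fish kept duplicated copies of many of these genes, and fast skeletal muscle, neurons and liver use different copies, the liver also running part of the pathway in reverse to make glucose. In addition, gapdh is widely used as a reference gene for expression measurements.

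Total counts per library lay between 29006611 and 58166358, the lowest in a brain and the highest in a liver. Lists of cell type markers, summed in CPM (counts scaled to a common library total with TMM factors, which adjust for library composition), checked the tissue labels. The 12 neuron genes summed to 10072 to 13547 CPM in brain and to at most 329.8 CPM elsewhere. The 16 hepatocyte genes summed to 5872 to 273625 CPM in liver, and to at most 5681 in brain and 11203 in skin. The highest of these skins, a library of 24 months, thus lay above the lowest liver. The 15 keratinocyte genes summed to 32238 to 68268 CPM in skin and to at most 6515 CPM elsewhere. Some libraries stood apart. Skin also held RNA of skeletal muscle, whose 45 genes summed to 4384 to 102451 CPM, the highest in replicate 2 of 36 months. Of the 23 liver libraries, 9 held over 10000 CPM of 15 enterocyte genes, and replicate 1 of 24 months had the lowest hepatocyte sum of the livers together with 6753 CPM of muscle genes, against 376 or less in the other livers. In skin of 42 months, replicates 1 and 5 held 1649 and 769 CPM of 13 neutrophil genes, against 256 or less in the other skins.

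The tissues used different copies of the same enzymes. Levels were compared between genes in RPKM, which corrects for transcript length, and are given as the lowest, median and highest library of each tissue. For the dehydrogenase step, gapdhs stood at 1109, 1332 and 1606 RPKM in the 25 brain libraries, where gapdh stood at 5.96, 11.9 and 210.4. In the 23 livers the order was the opposite, with gapdh at 1229, 2214 and 5045 RPKM and gapdhs at 9.66, 37.5 and 176. Skin held both, with gapdh at 166, 1133 and 3489.98 RPKM and gapdhs at 118, 256 and 437. The gene named gapdhs after the sperm form of mammals was thus the main copy of brain, and gapdh the main copy of liver and, by its median, of skin. For triosephosphate isomerase, tpi1a was at 21.2, 31.3 and 40.6 RPKM in brain and at most 1.55 RPKM in skin and 2.76 in liver, while tpi1b stood at 111.6, 165 and 222 in brain, 75.1, 216 and 370.1 in liver and 48.4, 119.8 and 209.7 in skin. The brain and skin ranges of tpi1a did not overlap, whereas those of tpi1b did in every pair of tissues.

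By their medians the aldolase A genes were highest in skin. Of the pair, aldoaa stood at 265, 632 and 1452 RPKM in skin, 238, 262 and 337 in brain and 9.56, 41.9 and 882 in liver. Its copy aldoab stood at 21.0, 118.6 and 307 RPKM in skin, but its medians were 2.76 RPKM in brain and 0.436 in liver, where 1 library had a count of 0. Of the later steps, eno1a, pkma and ldha were highest in brain by their medians. In brain eno1a stood at 262, 332 and 427 RPKM, pkma at 108.7, 150.2 and 178 and ldha at 94.9, 155 and 214. In skin eno1a was at 29.3, 51.9 and 84.6 RPKM, pkma at 22.1, 37.2 and 54.9 and ldha at 14.99, 54.7 and 128. The livers were spread most widely, with eno1a at 2.20, 11.7 and 103.4 RPKM, pkma at 3.65, 11.3 and 66.5 and ldha at 2.52, 18.9 and 443. Levels of pgk1 were 162, 185 and 238 RPKM in brain, 131, 179 and 260.2 in liver and 57.1, 96.2 and 132.3 in skin, so that brain and liver largely overlapped.

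**Figure D1:**
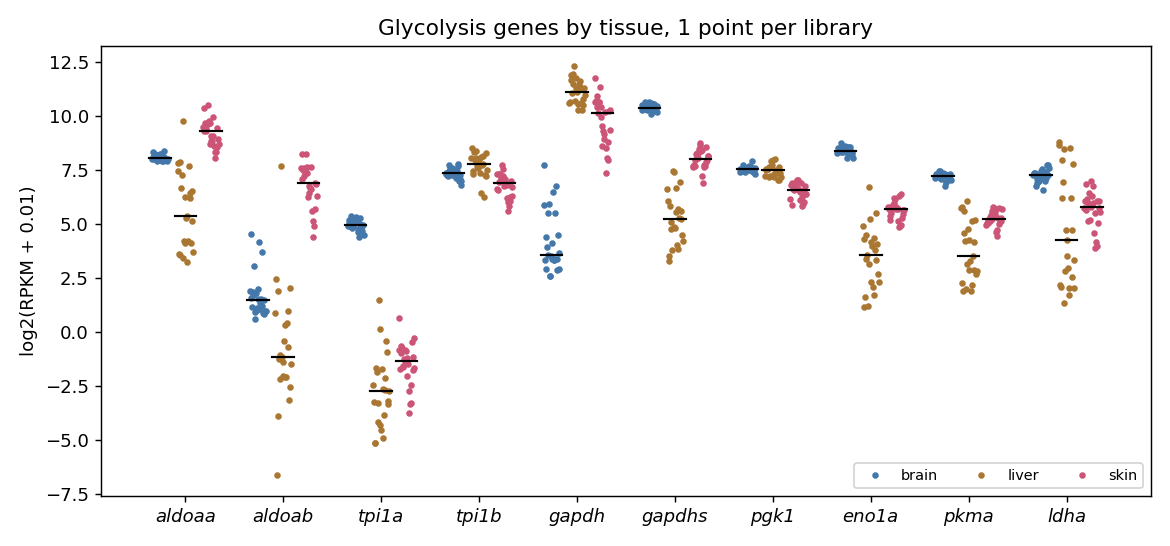
Levels of the 10 glycolysis genes in every library, as log2(RPKM + 0.01), with brain, liver and skin side by side for each gene and the median as a black bar. Brain stands high for tpi1a and gapdhs and low for gapdh, skin is highest for aldoaa and aldoab, and the livers spread widely for aldoaa, eno1a, pkma and ldha.

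Differences between tissues were tested on counts with TMM factors, as the mean over the 5 ages, with edgeR's quasi-likelihood test, and a gene was called at an adjusted p (Benjamini-Hochberg, over all genes tested) under 0.05. Of the 10 genes, 9 were called between skin and brain, where 83.4% of all genes tested were called. Higher in skin were gapdh (log2 fold change 5.53 ± 0.38, adjusted p = 5.0e-21), aldoab (5.33 ± 0.53, adjusted p = 4.6e-14) and aldoaa (1.69 ± 0.27, adjusted p = 9.2e-08), all ± SE. Lower in skin were tpi1a (-5.96 ± 0.26, adjusted p = 1.7e-30), eno1a (-2.28 ± 0.20, adjusted p = 6.5e-16), gapdhs (-1.93 ± 0.15, adjusted p = 3.1e-18), pkma (-1.48 ± 0.18, adjusted p = 2.6e-11), ldha (-1.05 ± 0.37, adjusted p = 0.0088) and pgk1 (-0.53 ± 0.10, adjusted p = 5.2e-06). For tpi1b the difference was -0.09 ± 0.11, adjusted p = 0.46. Between skin and liver 8 were called, against 73.5% of all genes, with aldoab (4.93 ± 0.55, adjusted p = 5.4e-12), aldoaa (1.92 ± 0.28, adjusted p = 1.7e-08), gapdhs (1.54 ± 0.16, adjusted p = 1.3e-13) and eno1a (0.84 ± 0.20, adjusted p = 0.0002) higher in skin and gapdh (-2.48 ± 0.33, adjusted p = 1.1e-09), tpi1b (-2.02 ± 0.12, adjusted p = 1.1e-23), pgk1 (-2.002 ± 0.11, adjusted p = 4.0e-25) and ldha (-1.56 ± 0.39, adjusted p = 0.00027) lower. The call of ldha was lost with the fish as a random block in limma voom (-0.25, adjusted p = 0.56) and with limma voom alone (-0.25, adjusted p = 0.58). By the median library, ldha was instead higher in skin (54.7 RPKM) than in liver (18.9 RPKM, highest 443). No contrast between tissues was run without the livers rich in enterocyte genes. With the block pkma was called higher in skin in addition (0.40, adjusted p = 0.032). Between brain and liver 7 were called, against 85.1% of all genes, with tpi1a (5.85 ± 0.28, adjusted p = 2.1e-28), gapdhs (3.47 ± 0.17, adjusted p = 5.1e-28), eno1a (3.11 ± 0.22, adjusted p = 2.7e-20) and pkma (1.60 ± 0.18, adjusted p = 7.7e-12) higher in brain and gapdh (-8.01 ± 0.42, adjusted p = 2.5e-26), tpi1b (-1.93 ± 0.12, adjusted p = 2.5e-23) and pgk1 (-1.47 ± 0.11, adjusted p = 1.2e-19) lower. With the block aldoaa (0.90, adjusted p = 0.0012) and ldha (0.91, adjusted p = 0.025) were called higher in brain as well. With most genes of the table called in each of these contrasts, the shares of the 10 called were near the background.

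The contrasts between tissues, above all those with liver, depended on the scaling. Deposited RPKM are scaled to total reads, whereas TMM factors set the bulk of genes level between tissues. With total counts in place of TMM factors, an alternative added after the data were seen, the median over all genes moved by 1.43 between brain and liver, 0.97 between skin and liver and -0.45 between skin and brain on the log2 scale. Of all calls between brain and liver, 77.6% were then higher in brain, against 49.3% with TMM, and of those between skin and liver 83.1% were higher in skin, against 49.8%. Between skin and brain 38.5% were higher in skin, against 50.8%. The gene pgk1, lower in brain than in liver with TMM, was then at 0.069, adjusted p = 0.4, a change of direction, and tpi1b was at -0.45, adjusted p = 0.0002. Added calls were tpi1b between skin and brain (-0.55, adjusted p = 5.8e-06), pkma (0.92, adjusted p = 0.00029) and tpi1a (0.80, adjusted p = 0.0084) between skin and liver, and aldoaa between brain and liver (1.45, adjusted p = 3.5e-05). The other called genes kept their direction and their call under both scalings.

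In skin, 6 of the 10 glycolysis genes were lower at 36 and 42 months than at 6 months. These ages also differ in transgenic line, so age and line cannot be told apart. Between 24 and 6 months, with no transgene listed for the grouped libraries, gapdh alone of the 6 was called. Comparing the mean of 36 and 42 months with 6 months, all 6 genes called in skin were lower, while 15.1% of all genes tested were called in either direction and 7.32% were lower. The median log2 fold change was -0.82 over the 10 genes and 0.01 over all genes. All 10 estimates were below 0. Without replicate 4 of 6 months 3 of 10 were called. The called genes were both aldolase A genes, both triosephosphate isomerase genes, gapdh and ldha, whereas gapdhs, pgk1, eno1a and pkma did not pass. In bulk tissue, fewer cells of a type and less RNA per cell cannot be told apart.

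The gene gapdh fell most. Skin of 6 months held 3075, 7384, 3565, 4288 and 2793 CPM of gapdh, skin of 12 months 2327, 3227, 3268, 5483 and 2900.2 and skin of 24 months 1812, 754, 1479, 1077 and 973. At 36 months the libraries held 1158, 2594, 712, 324 and 557 CPM and at 42 months 416, 799, 2279.6, 1231 and 2277. Every library of 24, 36 and 42 months was thus below every library of 6 months. The mean was 4221 ± 1857 CPM (SD, n = 5) at 6 months and 1235 ± 847 (n = 10) at 36 and 42 months, a 3.45-fold lower level in the fit (log2 fold change -1.79 ± 0.39, adjusted p = 0.0046). The fall was already present at 24 months, with no transgene listed for the grouped libraries of either age (-1.79 ± 0.49, adjusted p = 0.013). The old against young fall was called with each of the 25 libraries left out in turn, the estimates lying between -2.14 and -1.50.

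Its copy gapdhs followed another course. Skin held 281, 318, 336, 334 and 373 CPM of gapdhs at 6 months, 461, 379.8, 476, 414 and 489 at 12 months and 482, 611, 588, 423 and 493 at 24 months. At 36 months the values were 217, 189.9, 277, 307 and 317 CPM and at 42 months 472, 307, 351, 402 and 381. All libraries of 12 and of 24 months lay above all of 6 months, and 3 of the 5 libraries of 36 months were the lowest of skin. The rise from 6 to 24 months was called (0.66 ± 0.14, adjusted p = 0.003), as was the rise from 36 to 42 months (0.55 ± 0.14, adjusted p = 0.02), although the latter missed the threshold without replicate 1 of 42 months (0.49, adjusted p = 0.052) and without both libraries rich in neutrophil genes (0.46, adjusted p = 0.11). Comparing the mean of 36 and 42 months with 6 months, the difference was -0.05 with a 95% interval of -0.31 to 0.20.

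As a share of the summed RPKM of gapdh and gapdhs in each skin library, gapdhs made up 5.52, 11.03 and 15.3% (lowest, median and highest) at 6 months and 9.31, 16.5 and 21.2% at 12 months. The shares were 26.5, 35.1 and 52.4% at 24 months, 9.05, 34.6 and 56.3% at 36 months and 17.3, 30.7 and 60.6% at 42 months. The libraries of 24 and of 42 months all lay above those of 6 months, but at 36 months replicate 2, the skin with the highest muscle sum, had the lowest share of its age, within the range of 6 months. In brain gapdhs made up at least 87.5% in every library and in liver gapdh made up at least 90.3%. No test was run on these shares.

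**Figure D2:**
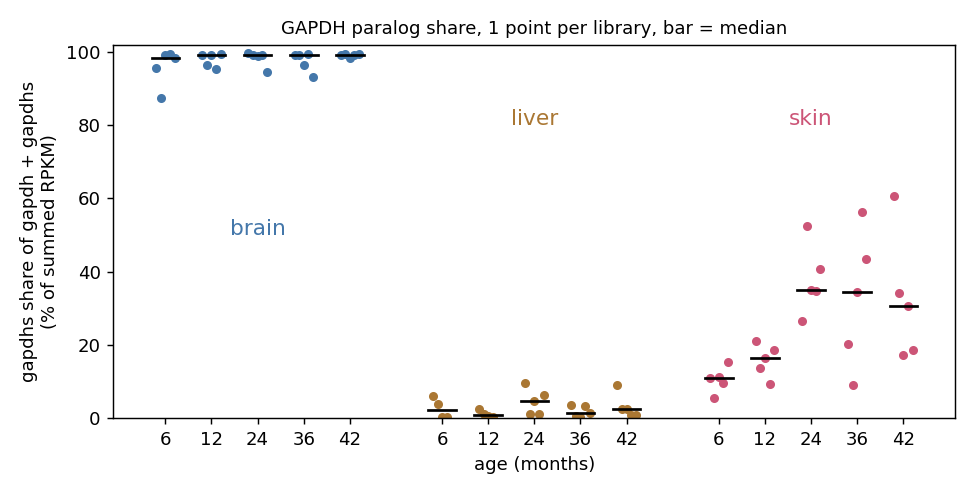
Share of gapdhs in the summed RPKM of gapdh and gapdhs, in percent, by tissue and age in months, with 1 point per library and the median as a black bar. Brain stands near the top and liver near the bottom at every age, and the skin medians are higher at 24, 36 and 42 months than at 6 and 12 months.

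Both aldolase A genes were lower in old skin. For aldoaa the libraries of 6 months held 1277, 2656, 1294, 1708 and 1230.4 CPM, those of 12 months 1329.9, 1544, 1569, 2935 and 1783 and those of 24 months 1443, 753, 1034, 736 and 852. Values were 1023, 2077, 722, 489 and 631 CPM at 36 months and 512, 655, 1263, 888 and 738 at 42 months. Of the 10 libraries of 36 and 42 months, 8 were below all those of 6 months, and the ranges overlapped (-0.87 ± 0.28, adjusted p = 0.042). This call depended on single libraries, since it was lost when replicate 2 or 4 of 6 months, replicate 1, 3, 4 or 5 of 36 months, or replicate 1, 2, 4 or 5 of 42 months was left out, with adjusted p up to 0.16. The second gene, aldoab, held 297, 525, 236, 322 and 244 CPM at 6 months, 325, 274, 308, 521 and 339 at 12 months and 245, 116.1, 142, 150.98 and 162 at 24 months. At 36 and 42 months it held 161, 357, 74.2, 33.0 and 59.7 CPM, and 40.8, 76.4, 183, 176 and 115.7 CPM. It was below every library of 6 months in 9 of 10 old libraries, 2.55-fold lower in the fit (-1.35 ± 0.39, adjusted p = 0.023). The call was lost without replicate 2 of 6 months (-1.13, adjusted p = 0.076) and without the libraries rich in neutrophil genes (adjusted p = 0.0502). In an edgeR fit of 6, 36 and 42 months only, neither aldoaa (adjusted p = 0.084) nor aldoab (adjusted p = 0.074) was called. With no filter the call of aldoaa was lost as well (adjusted p = 0.051).

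Triosephosphate isomerase in skin was nearly all tpi1b, which made up at least 98.5% of the RPKM of both genes. Skin held 188, 342, 203, 348 and 249 CPM of tpi1b at 6 months, 329, 276, 282, 447 and 318 at 12 months and 341, 206, 275, 213 and 236 at 24 months. At 36 months it held 145.4, 244, 125.1, 94.3 and 118 CPM and at 42 months 129, 119.2, 242, 202 and 144, below all libraries of 6 months in 7 of 10 libraries (-0.77 ± 0.21, adjusted p = 0.016). The call was lost without replicate 4 of 6 months (-0.68, adjusted p = 0.058). For tpi1a only 74, 25, 13, 25 and 30 counts were found in skin of 6 months, 29, 14, 16, 18 and 34 at 12 months, 17, 23, 10, 18 and 15 at 24 months, 6, 3, 4, 4 and 8 at 36 months and 31, 13, 19, 15 and 48 at 42 months. At this level of 1.91, 0.755, 0.414, 0.714 and 0.844 CPM at 6 months, 0.182, 0.0925, 0.110, 0.116 and 0.232 at 36 months and 0.788, 0.337, 0.539, 0.377 and 0.980 at 42 months, the drop was concentrated at 36 months, whose libraries lay below all others of skin. Both the contrast of old and young (-1.63 ± 0.32, adjusted p = 0.0018) and the rise from 36 to 42 months (2.03 ± 0.41, adjusted p = 0.0044) were called with each library left out in turn, but a linear trend over age was not (adjusted p = 0.12).

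The last step, ldha, also reached its lowest values at 36 months. Skin held 108.8, 156, 119.9, 278 and 144.7 CPM of ldha at 6 months, 161, 77.0, 135.7, 202 and 83.1 at 12 months and 256, 114, 175, 204 and 134.1 at 24 months. The values were 52.7, 110.2, 31.5, 38.6 and 35.6 CPM at 36 months and 124.1, 64.4, 112.6, 142 and 93.3 at 42 months. At 36 months 4 of 5 libraries were below every other skin library of the study. Old skin was 2.13-fold lower than young in the fit (-1.09 ± 0.29, adjusted p = 0.014). The call was lost without replicate 4 of 6 months (-0.83, adjusted p = 0.08), and a linear trend over age was not called (adjusted p = 0.11). For the genes that did not pass, the 95% intervals of the log2 fold change were -0.68 to 0.11 for pgk1, -0.50 to 0.37 for eno1a and -0.33 to 0.19 for pkma. Skin of 6 months held 205, 249, 266, 251 and 265 CPM of pkma, and the old libraries stood at 169.9, 234 and 337 (lowest, median and highest).

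**Figure D3:**
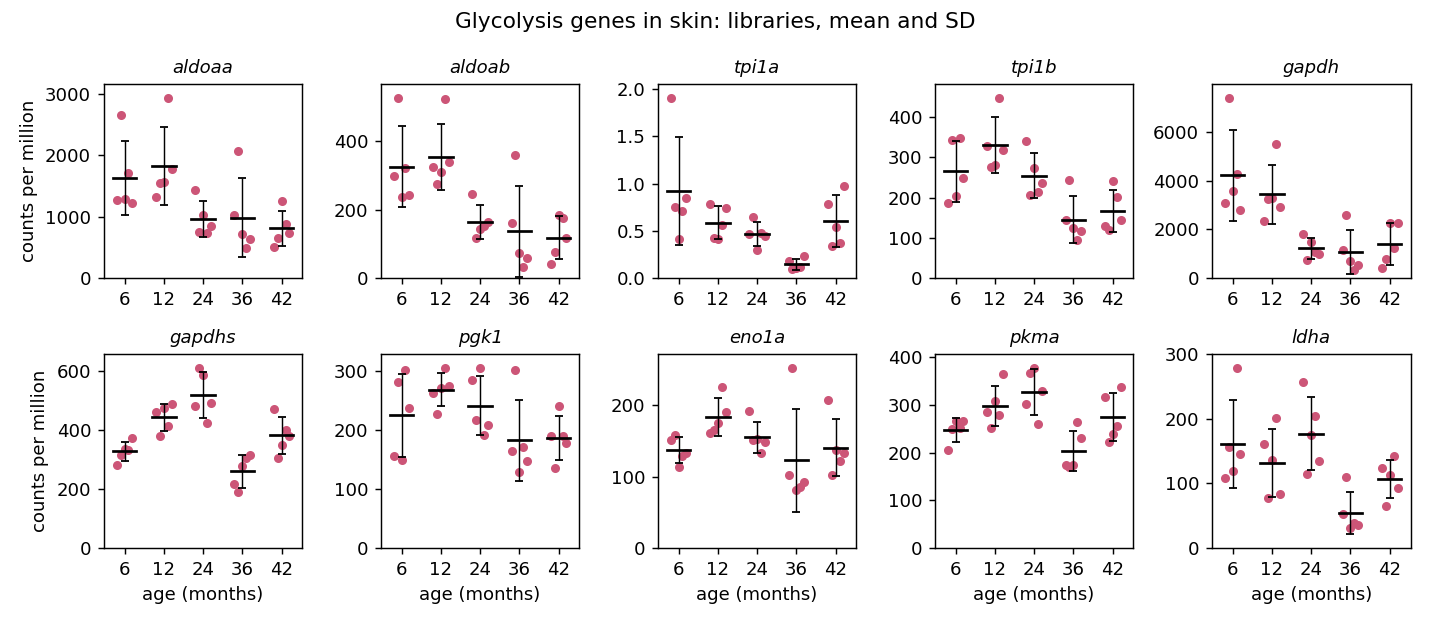
CPM of the 10 glycolysis genes in skin by age in months, with 1 point per library (5 per age), the mean as a horizontal bar and the SD as whiskers. All axes start at 0, the means of gapdh and aldoab are lower from 24 months on, and tpi1a and ldha are lowest at 36 months.

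Skeletal muscle RNA also varied between the skin libraries, together with some of these genes and not with others. The 45 muscle genes summed to 47575, 56952, 25580.4, 42649.6 and 26172 CPM at 6 months, 29926, 39138, 37745, 82767 and 36629 at 12 months and 50416, 12664, 21481, 22172 and 20693 at 24 months. They summed to 19248, 102451, 10785, 4451 and 7896 CPM at 36 months and 4384, 8069, 27292, 30451 and 22226 at 42 months. Replicate 2 of 36 months, with the highest sum, had the highest gapdh, aldoaa, aldoab, tpi1b, eno1a, pgk1 and ldha of its age. The same library had the lowest gapdhs and tpi1a of its age. With the log2 muscle sum as a covariate, 3 of the 10 genes remained called in old against young skin, against 3107 of 22429 genes in all. These were gapdh (-1.07, adjusted p = 0.0018), aldoab (-0.67, adjusted p = 0.0041) and tpi1a (-1.73, adjusted p = 0.0068). The estimates became -0.32, adjusted p = 0.16 for aldoaa, -0.39, adjusted p = 0.07 for tpi1b and -0.72, adjusted p = 0.074 for ldha. In the comparison of 24 with 6 months the same covariate left gapdh lower (-1.29, adjusted p = 0.00038) and gapdhs higher (0.56, adjusted p = 0.0029). Without replicate 2 of 36 months, all 6 genes were called and the estimates of gapdh and aldoab were -2.14 and -1.76. Without both libraries rich in neutrophil genes, 4 of 10 were called, against 3082 of 22898 genes in all, aldoaa and aldoab being lost.

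**Figure D4:**
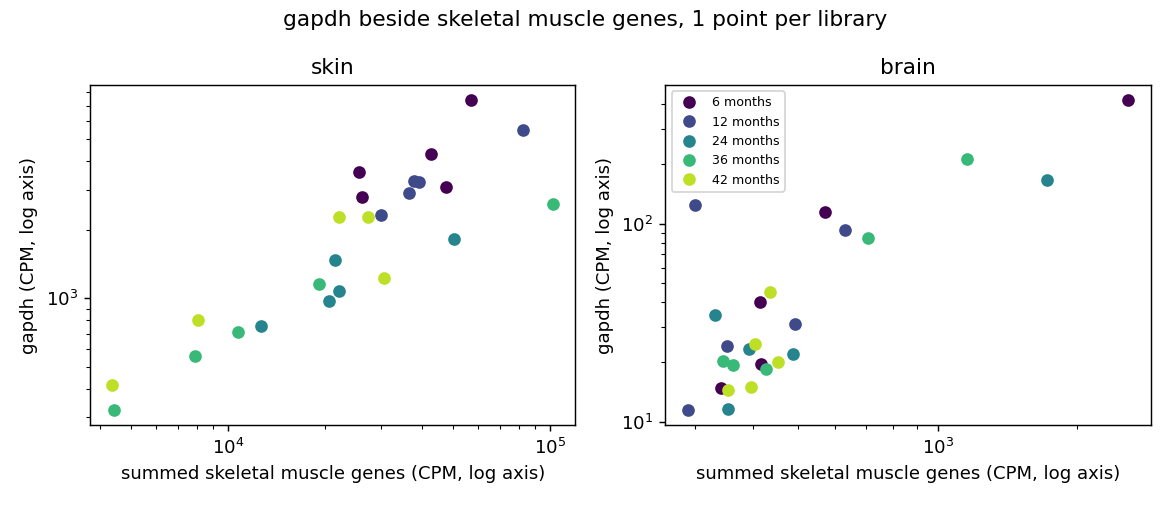
gapdh in CPM against the summed CPM of 45 skeletal muscle genes in skin (left) and brain (right), 1 point per library coloured by age in months, both axes logarithmic. In skin most libraries of 36 and 42 months sit low on both axes, and in brain the 3 libraries highest in muscle genes are the 3 highest in gapdh.

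At the steps between single ages in skin, 2 of 10 genes were called between 24 and 6 months (background 20.2%), namely gapdh and gapdhs in opposite directions, and 2 between 42 and 36 months (background 10%), namely tpi1a and gapdhs. The latter count was 4 without replicate 2 of 36 months or replicate 2 of 42 months, and 1 without replicate 1 of 42 months. The other members between 24 and 6 months ranged from -0.99 for aldoab and -0.98 for tpi1a to 0.40 for pkma on the log2 scale. Between 12 and 6 months 0 of 10 were called by edgeR (background 9.08%), with 1 at an unadjusted p under 0.05, 1 by DESeq2 (gapdhs) and 0 by limma voom, and gapdhs was called without replicate 2 of 36 months. In the test for any difference among the 5 ages 8 of 10 were called (background 49.0%), all but eno1a and pgk1.

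In brain no change of these genes was called between old and young fish. Comparing 36 and 42 with 6 months, 0 of 10 genes were called by edgeR (background 19.6%), with 1 at an unadjusted p under 0.05 and 0 by DESeq2 and limma voom. For 8 of the genes the 95% interval lay within -0.44 and 0.31 on the log2 scale. The main brain copy gapdhs stood at 1788, 2153, 1913, 1927 and 1902 CPM at 6 months and at 1590.3, 1827 and 2186 (lowest, median and highest) at 36 and 42 months, an interval of -0.22 to 0.11. For pkma the values were 958, 1108, 1054, 1049 and 1014 CPM at 6 months and 744, 946 and 1080.5 in the old libraries, an interval of -0.31 to 0.01. The exceptions with wide intervals were the minor copies gapdh (-1.56, -3.15 to 0.02) and aldoab (-1.22, -2.44 to -0.0018).

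These minor copies were high in single brain libraries. The brains of 6 months held 115, 417, 19.6, 14.8 and 40.4 CPM of gapdh, with 5.88, 36.6, 4.69, 3.53 and 5.48 CPM of aldoab and 569.7, 2579.6, 415, 341 and 414 CPM of muscle genes. At 24 months replicate 5 held 166 CPM of gapdh and 1719.5 of muscle genes, and at 36 months replicate 5 held 211 and 1154. The exception was replicate 4 of 12 months, with 124.1 CPM of gapdh beside 299 of muscle genes. With the muscle sum as a covariate the old against young estimates were -0.42 for gapdh and -0.29 for aldoab. Without replicate 5 of 36 months, aldoab was called (-1.67, adjusted p = 0.035).

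Between 42 and 36 months and between 12 and 6 months, the brain genes called were ldha and tpi1b. The steps from 12 to 24 and from 24 to 36 months were not tested. Brains held 331, 356, 359, 348 and 226 CPM of ldha at 6 months, 312, 263, 279, 353 and 268 at 12 months and 329, 340.3, 381, 354 and 375 at 24 months. At 36 months they held 203, 347, 288, 277 and 301 CPM and at 42 months 362, 482, 344, 452 and 415, where 4 of 5 libraries lay above all those of 36 months. For tpi1b the values were 309.8, 329, 300.3, 294 and 327 CPM at 6 months and 443, 364, 375, 385 and 368 at 12 months, with no overlap. They were 301, 351, 327, 326 and 334 CPM at 24 months, 308, 262, 326, 406 and 436 at 36 months and 251, 320.2, 270.4, 244 and 217 at 42 months. Between 42 and 36 months 2 of 10 genes were called (background 22.8%), ldha upward (0.54 ± 0.13, adjusted p = 0.0052) and tpi1b downward (-0.42 ± 0.11, adjusted p = 0.0083), and both calls held with each library left out in turn. Between 12 and 6 months 1 of 10 was called (background 18.3%), tpi1b (0.31 ± 0.11, adjusted p = 0.049). That call was lost when replicate 1, 3 or 4 of 12 months or any 1 of the 5 libraries of 6 months was left out, with adjusted p up to 0.12. Between 24 and 6 months 0 of 10 were called (background 13.9%), with 0 at an unadjusted p under 0.05 and 0 by DESeq2 and limma voom.

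Over the 5 ages of brain, 4 of 10 genes were called (background 50.1%), namely tpi1b (adjusted p = 0.0032), ldha (0.0099), pkma (0.029) and tpi1a (0.032). The calls of pkma and tpi1a were lost when replicate 3 or 4 of 24 months or replicate 1, 3 or 5 of 42 months was left out, which left 2 of 10. Brains held 37.9, 47.1, 42.5, 38.4 and 38.1 CPM of tpi1a at 6 months, 49.1, 45.8, 51.0, 51.2 and 42.2 at 24 months, 31.4, 32.7, 25.9, 49.6 and 40.3 at 36 months and 33.8, 40.4, 33.1, 39.6 and 28.5 at 42 months. For pkma the libraries of 24 months held 1065, 1068, 1156, 1129 and 1039 CPM and those of 36 months 744, 806, 815, 1008 and 1059.7. The 5 libraries of 36 months divided, with replicates 4 and 5 higher than replicates 1, 2 and 3 in gapdhs, eno1a and pkma.

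In liver none of the 10 genes was called by edgeR in old against young fish (background 0.19%), with 0 at an unadjusted p under 0.05 and 0 by DESeq2 and limma voom. The median of the 10 estimates was -0.29 on the log2 scale, against -0.02 over all genes. The main liver copy gapdh stood at 2177, 2289.7, 10678 and 9641 CPM at 6 months and at 3368, 5318, 8296 and 15758 at 12 months. It stood at 2002, 4725, 5771, 3903 and 2175 CPM at 24 months, 3031, 7343, 9275, 2375 and 5137 at 36 months and 2099, 3300.5, 2822, 6786 and 4710.5 at 42 months. The ages overlapped, and the 95% interval of old against young was -1.499 to 0.66, wide enough to hold both a fall and a rise. Between 24 and 6 months 0 were called by edgeR (background 3.55%), with 2 at an unadjusted p under 0.05, 1 by DESeq2 (tpi1a) and 0 by limma voom. Counts of 0 of 10 by edgeR, DESeq2 and limma voom were also found between 42 and 36 months and between 12 and 6 months, with 0 and 0 at an unadjusted p under 0.05. The backgrounds, in the same order of tools, were 0.181%, 1.78% and 0.133% between 42 and 36 months. Between 12 and 6 months they were 0.038%, 0.599% and 0.0143%. Over all ages edgeR also called 0 (background 7.28%), with 2 at an unadjusted p under 0.05. DESeq2 called 0 (background 19.5%) and limma voom 0 (background 3.88%).

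In livers of 6, 36 and 42 months, ldha was high in libraries rich in enterocyte genes. The ldha values of 12 months are not reported here. Livers of 6 months held 616, 682, 13.7 and 13.7 CPM of ldha beside 43533, 55478, 2973 and 3463 CPM of enterocyte genes. Those of 36 months held 20.4, 11.5, 10.3, 619 and 164 CPM of ldha beside 822, 1625, 2299, 52060.3 and 21299, and those of 42 months 49.3, 14.3, 380.3, 29.7 and 10.5 beside 499.6, 1199.9, 27027, 1513 and 2020.00. At each of these ages the highest ldha value fell in a library rich in enterocyte genes. The high values of other members did not all lie there, since replicate 1 of 42 months, with the lowest enterocyte sum of the livers, had the second highest ldha and the highest gapdhs (156 CPM) and eno1a (114 CPM) of its age. Replicates 1 and 2 of 6 months, rich in enterocyte genes, were also high in pkma among the 4 libraries of their age (261, 275, 46.8 and 37.7 CPM) and in aldoaa (227, 299, 31.9 and 32.7 CPM), while gapdh was low in them. Replicate 1 of 24 months, the liver with muscle RNA, held 205 CPM of aldoab against 6.17 or less elsewhere, and 1020.5 CPM of aldoaa. The same library had the highest ldha of its age, 469 CPM against 47.3 in the next. The highest tpi1a counts of liver, 128 and 53 in replicates 1 and 3 of 24 months, stood beside neuron sums of 82.3 and 329.8 CPM, against a median of 23.2, and the part of neuron RNA in these counts was not tested. Leaving out the 9 libraries rich in enterocyte genes leaves 2 livers of 6 months and 1 of 12 months. In that fit the old against young estimates were -0.97 for gapdh and 0.46 for ldha.

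**Figure D5:**
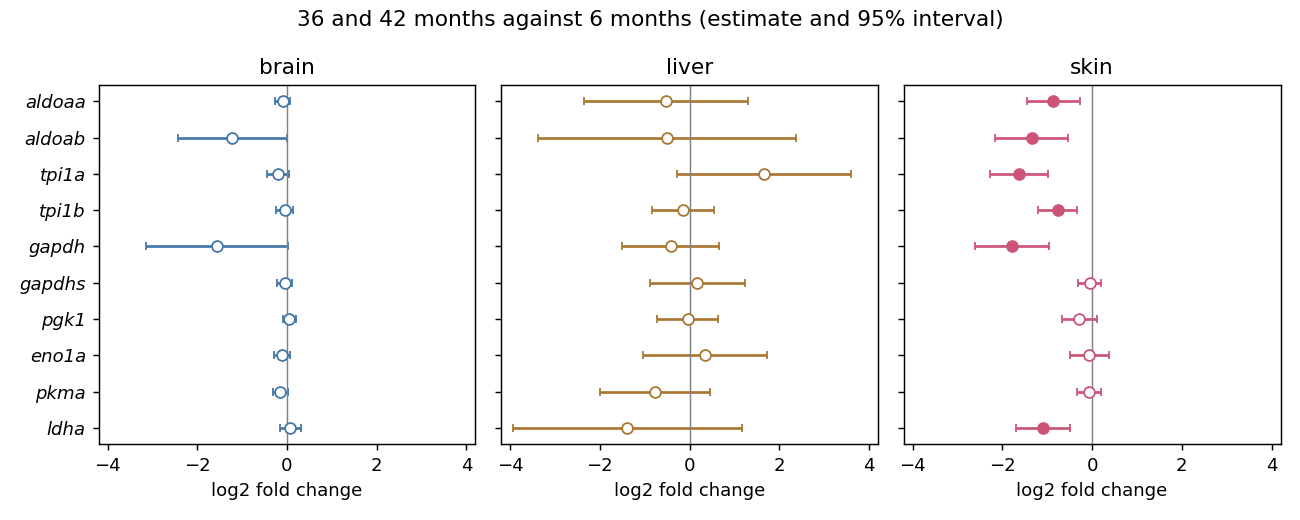
Log2 fold change of 36 and 42 months against 6 months for the 10 glycolysis genes in brain, liver and skin, with the 95% interval as whiskers and filled points for genes with an adjusted p under 0.05. In skin 6 genes are filled and lie left of 0, and no gene is filled in brain or liver, where the liver intervals are wide.

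Whether the change with age differed between tissues was tested as a difference of the contrasts over all 73 libraries. Between skin and brain 0 of 10 genes were called by edgeR (background 0.931%), with 2 at an unadjusted p under 0.05 and 0 by DESeq2 and limma voom. For gapdh this difference (skin minus brain) was -0.23 with an interval of -1.93 to 1.47, so that the fall in skin was not shown to be particular to skin. The differences of tpi1a (-1.43 ± 0.60, adjusted p = 0.32) and tpi1b (-0.72 ± 0.31, adjusted p = 0.33) were the 2 at an unadjusted p under 0.05. Between skin and liver 1 of 10 was called (background 2.93%), tpi1a (-3.26 ± 0.77, adjusted p = 0.011), and it missed the threshold in limma voom (-2.95, adjusted p = 0.051). This rests on 7, 4, 1 and 1 counts in the livers of 6 months and at most 38 in those of 36 and 42 months. Between brain and liver 0 were called by edgeR (background 4.7%), with 1 at an unadjusted p under 0.05 and 0 by DESeq2 and limma voom.

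For the other genes of the pathway, the leading copy differed between tissues at some steps and was shared at others. Of 27 further symbols listed, 21 were rows of the table. By mean RPKM the leading hexokinase was hk1 in brain (70.3 RPKM), hkdc1 in liver (32.6) and hk2 in skin (21.2), closely followed by hk1 (19.2). For aldolase it was aldocb, the brain type, in brain (1024 RPKM) and aldoaa in skin. The leading enolase was eno1a in brain and eno3, the muscle type, in both liver (666 RPKM) and skin (364). Pyruvate kinase was led by pkma in brain, PKLR, the liver type, in liver (895 RPKM) and pkmb in skin (76.9). Lactate dehydrogenase was led by ldhba in brain (405 RPKM) and skin (269) and by ldhbb in liver (358). The mutase was led by pgam1b in brain (109.99 RPKM), pgam1a in liver (88.3) and pgam2, the muscle type, in skin (97.95). The isomerase gpia led in all tissues, at 189, 135.02 and 65.5 RPKM in brain, liver and skin. Of the phosphofructokinases listed, pfkmb led in skin (22.5 RPKM), while pfkma (0.535) and pfkmb (0.514) were close in brain. Genes named PFKP (2 of 2) and PFKL (1 of 2) were not matched by the symbols listed, so this step was compared in part only. In liver the mean of pfkmb (2.64 RPKM) rested on 1 library at 59.11, and by the median pfkma was higher (0.125 RPKM against 0.0499). The skin libraries held 4384 to 102451 CPM of muscle genes, and the part of muscle RNA in the leading copies of skin was not tested.

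In old against young skin, 5 of 20 of these genes tested were lower and 2 higher, with a median log2 fold change of -0.35, against 15.1% of all genes called and 7.32% lower. The summed muscle genes of skin had a median of 42649.6 CPM at 6 months and 15016 in the old libraries. Estimates of these genes with the muscle sum as a covariate are not reported here, so the part of muscle RNA is not given. Lower were pfkma (-1.68 ± 0.44, adjusted p = 0.014), pgam2 (-1.3002 ± 0.39, adjusted p = 0.028) and eno3 (-1.09 ± 0.25, adjusted p = 0.0066), all of the muscle type, together with pkmb (-1.55 ± 0.43, adjusted p = 0.018) and ENO4 (-1.60 ± 0.52, adjusted p = 0.039). Mean eno3 was 1339 ± 462 CPM (SD, n = 5) at 6 months and 633 ± 274 (n = 10) in old skin, and mean pkmb 366 ± 199 and 125.4 ± 88.2. Mean ENO4 at 6 months, 0.790 ± 0.970 CPM, had an SD above the mean. Higher were aldocb (0.81 ± 0.26, adjusted p = 0.037) and eno1b (0.60 ± 0.20, adjusted p = 0.045). Between 24 and 6 months of skin 3 were higher and 2 lower (background 20.2%, to which 5 of 20 is near), with eno3 (-1.19 ± 0.31, adjusted p = 0.009) and ENO4 (-2.30 ± 0.66, adjusted p = 0.017) lower, and pgam1a (1.06 ± 0.34, adjusted p = 0.029), pgam1b (0.38 ± 0.13, adjusted p = 0.035) and PKLR (3.70 ± 1.19, adjusted p = 0.032) higher. Mean PKLR at 24 months, 58.2 ± 119.3 CPM (SD, n = 5), had an SD above the mean as well. In skin of 24 months the hepatocyte genes had a median of 1368 CPM and a highest library of 11203. The part of liver RNA in the PKLR values was not tested. In brain, ENO4 alone of 21 was called in old against young fish (background 19.6%, -0.95 ± 0.34, adjusted p = 0.049), and 2 between 24 and 6 months (background 13.9%), where pgam1a (0.54 ± 0.17, adjusted p = 0.033) and hkdc1 (0.91 ± 0.28, adjusted p = 0.032) rose from 6 to 24 months. In liver edgeR called 0 of 21 in either comparison (background 0.19% and 3.55%). In old against young liver 1 was at an unadjusted p under 0.05, DESeq2 called 0 and limma voom 0, and between 24 and 6 months these counts were 7, 3 and 0.

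The genes whose levels were most like the 10 across libraries were sought by Pearson's r of log2 CPM with the mean of the members, each scaled to a mean of 0 and an SD of 1. In skin they were chchd10 (r = 0.96), slc25a11 (r = 0.96), sucla2 (r = 0.94), adsl (r = 0.94) and rp42-pen (r = 0.93), the highest of 12594 genes over 25 libraries, among which slc25a11 is a carrier of the inner mitochondrial membrane and sucla2 a subunit of a citric acid cycle enzyme. In brain they were MDH2 (r = 0.93), ndufa11 (r = 0.92), chchd10 (r = 0.92), sdhc (r = 0.92) and sucla2 (r = 0.91), of 13534 genes over 25 libraries, which include MDH2, the mitochondrial malate dehydrogenase, sdhc of respiratory complex II and ndufa11 of complex I. In both tissues chchd10, a mitochondrial protein, and sucla2 were among the 5. In liver they were tagln2 (r = 0.89), ablim1b (r = 0.88), CHST6 (r = 0.88), gpx1b (r = 0.87) and stat4 (r = 0.87), of 10168 genes over 23 libraries, with tagln2 and ablim1b, both actin-binding proteins, at the head. For gapdh alone in skin they were pygma (r = 0.96), pgam2 (r = 0.95), eno3 (r = 0.95), MDH2 (r = 0.94) and zgc:136908 (r = 0.94), where pygma is the muscle glycogen phosphorylase, pgam2 the muscle mutase and eno3 the muscle enolase. Of these, eno3 was also the gene most like gapdh in brain (r = 0.93) and in liver (r = 0.94). It was the leading enolase of liver (666 RPKM) too, so its match with gapdh is not one of muscle-rich skin alone. The libraries share tissue makeup and depth, genes were picked for a high r, and no p was computed.

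Among themselves, the members formed different groups in each tissue, described here by r over libraries with no test. In skin gapdh, aldoaa and aldoab varied together, with r of 0.92 for gapdh and aldoaa, 0.93 for gapdh and aldoab and 0.94 for the aldolases, and gapdhs varied with pkma (0.92) but not with gapdh (-0.05). In brain gapdhs varied with eno1a (0.94), pkma (0.89) and tpi1a (0.86), and gapdh with aldoab (0.79). In liver gapdh varied with pgk1 (0.84) and tpi1b (0.66) and against gapdhs (-0.71) and eno1a (-0.74), whereas ldha varied with pkma (0.93) and aldoaa (0.91). These libraries span all 5 ages, whose differences enter each r. The libraries also differ in muscle and enterocyte RNA. In brain, replicate 2 of 6 months had the highest muscle sum and the highest gapdh and aldoab. In liver, the libraries of 6 months rich in enterocyte genes were high in ldha, pkma and aldoaa among those of their age. The part of such RNA in each r was not tested. The summed RPKM of the 10 genes in skin had medians of 3045, 3193, 1951, 1204 and 1879 at 6, 12, 24, 36 and 42 months, with the highest mean RPKM in gapdh and aldoaa. In brain the medians were 2623, 2615, 2797, 2502 and 2473, and in liver 3334, 4135, 3036, 3158 and 2403. No test was run on these sums.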

How the data were processed

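Male zebrafish tissues were sequenced from TruSeq libraries, which do not mark strand. Per the labels and the study's methods, the authors mapped reads with TopHat2 2.0.6 to Zv9 and counted them per Ensembl gene with HTSeq, later featureCounts. The deposited counts are raw reads per gene. The deposited RPKM values were made by the authors from counts, exon lengths and total reads. How reads that match several copies of a duplicated gene were assigned is not given in the sources used here. Both were used as deposited, counts for tests and RPKM for levels between genes. A row with a blank symbol was kept under its gene ID, and 351 rows had none. For 8 of the 10 genes the ID was found in the reference name table used here. Coordinates and sequences were not used here.

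Samples were grouped by the labels into 73 libraries. The labels of 2 further libraries name both skin and liver, so these were left out (4 columns in separate tables of counts and RPKM). Their labels also list Tg(wt1a:GFP), unlike the grouped libraries with the same fish numbers. Within each tissue, genes passing filterByExpr were fitted with edgeR 4.0.16 (TMM, robust quasi-likelihood, age as a factor of 5 levels, R 4.3.3), and contrasts between tissues were fitted over all 73 libraries. P-values were 2-sided and adjusted by Benjamini-Hochberg over all genes tested. Backgrounds are shares called by edgeR in the main fit unless another tool or setting is named. CPM were computed with TMM factors. No 2 libraries held identical values. Alternatives were RLE size factors, no filter, DESeq2 1.42.0, limma voom (limma 3.58.1), fits of the compared ages only, a linear trend, marker sums as covariates, leaving out libraries and, added later, total counts without TMM factors between tissues. The libraries above 10000 CPM of enterocyte genes or 500 CPM of neutrophil genes were chosen after the data were seen.

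Brain and liver shared 11 fish, brain and skin 15, and liver and skin 17, by the fish numbers in the labels, which pairs these libraries. The consensus correlation within a fish was 0.125. P-values measure the spread between fish of 1 cohort per age, or between pools of 2 fish in brain of 6 months. Brain contrasts with 6 months thus set single fish against pools. The members and gene lists were chosen with earlier results of these data known. Named were the 10 members, other glycolysis genes leading their step or called, up to 3 called genes of each further list, and the 5 genes most like the members. A few genes of the further lists are not reported here. The fits were tested on simulated data. Counting intervals were not needed, and precision is given as the SE (log2 fold change over the square root of F) or a 95% interval from the t distribution. Figures were drawn with Python 3.11.15.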

Additional observations from a re-analysis of the deposited data

Results flagged for a closer look

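In 26 of 150 groups of a gene, tissue and age, 1 library lay far from the rest by Dixon's gap test, which chance gives in about 1 of 20 groups. In brain, gapdh was 417 CPM in replicate 2 of 6 months (next highest 115) and 166 in replicate 5 of 24 months (next 34.4). Far above the rest of their age for aldoab in brain were replicate 2 of 6 months at 36.6 CPM, replicate 2 of 12 months at 13.5, replicate 5 of 24 months at 26.6, replicate 5 of 36 months at 20.3 and replicate 3 of 42 months at 4.49. Of these 5, all but replicate 3 of 42 months had the highest muscle sum of their age, which was the second highest there. Also high in brain were aldoaa at 611 CPM in replicate 2 of 6 months and tpi1b at 443 in replicate 1 of 12 months, and low was ldha at 226 in replicate 5 of 6 months (next 331).

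In liver, replicate 1 of 24 months was far above its age in aldoaa (1020.5 CPM, next 118), aldoab (205, next 0.849) and ldha (469, next 47.3). Replicate 1 of 42 months stood out in gapdhs (156 CPM) and eno1a (114), and replicate 1 of 12 months in aldoab (4.66). For ldha, replicate 4 of 36 months held 619 CPM and replicate 3 of 42 months 380.3, each the liver highest in enterocyte genes at its age.

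In skin, replicate 2 of 36 months was far above its age in eno1a (252 CPM), pgk1 (302) and ldha (110.2), and replicate 4 of 12 months in aldoaa (2935) and aldoab (521), both with the highest muscle sum of their age. At 6 months, replicate 1 was high in tpi1a (1.91 CPM) and low in pkma (205), and replicate 4 was high in ldha (278). Between tissues, the change of tpi1a with age differed between skin and liver by -3.26 ± 0.77 on the log2 scale (edgeR, adjusted p = 0.011), at the low counts given above.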

How the results depend on the processing

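Counts are of the 10 genes called, with the share over all genes as background. Shares for fits with a single library left out are not reported here. In old against young skin, 6 were called (background 15.1%), and 3 with the muscle sum as a covariate (background 13.9%). With single libraries left out, 3 to 6 were called (3 without replicate 4 of 6 months). Between 12 and 6 months of brain the 1 call fell to 0 with limma voom (background 15.7%) and with no filter (background 12.8%). It also fell to 0 in 8 of 25 left-out fits (0 to 1). Leaving out libraries gave 0 to 1 calls in old against young brain, 2 to 5 over all ages of brain, 1 to 4 between 42 and 36 months of skin and 0 to 1 between 12 and 6 months of skin. The 42 against 36 months skin count was 4 without replicate 2 of 36 or replicate 2 of 42 months and 1 without replicate 1 of 42 months, and the 12 against 6 months skin count was 1 without replicate 2 of 36 months. DESeq2 gave 1 call between 24 and 6 months of liver (background 11.2%). In skin it gave 4 between 42 and 36 months (background 14.2%) and 1 between 12 and 6 months (background 13.1%). Without libraries rich in neutrophil genes the skin counts were 4 between 24 and 6 months (background 21.5%) and 1 between 42 and 36 months (background 3.77%). In limma voom 0 of the 10 genes differed with age between skin and liver (background 1.03%). The cause was not tested for any of these, beyond the fewer libraries of some fits.

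The remaining 346 counts with a library left out, and those under the other settings, stayed within 1.5 times. The call of pgk1 between brain and liver changed sign with total counts in place of TMM factors (0.069, adjusted p = 0.4), no other called estimate changed sign, and 16 estimates of single genes missed the threshold under other settings. The fish as a replicate block in limma voom gave 8 calls between skin and liver (background 74.9%), where ldha was lost (-0.25) and pkma gained. It gave 9 between brain and liver (background 84.9%), where aldoaa and ldha were gained. The block changed no other call of the contrasts between tissues, and contrasts of ages within a tissue hold 1 library per fish. By median CPM instead of RPKM, 5 of 10 members kept their rank in brain, 7 in liver and 6 in skin.

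Over all genes, the count moved by more than 1.5 times under some alternative in liver, from 40 (4 to 680 over the alternatives) in old against young fish, 748 (0 to 2361) between 24 and 6 months, 38 (3 to 375) between 42 and 36 months, from 0.038% of genes (0.0136 to 0.599%) between 12 and 6 months and 1533 (565 to 4105) over all ages. It also moved between 42 and 36 months of skin, 2249 (863 to 3183), and for the differences of old against young, 236 (200 to 597) between skin and brain, 743 (262 to 1427) between skin and liver and 1191 (549 to 2015) between brain and liver. In old against young brain, 4507, it moved that far only with the linear trend over age (1148), which tests a slope over 5 ages. The other alternatives there gave 3986 to 5237. Depth limits tpi1a in skin and liver and aldoab in liver, which had few counts.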

Other observations

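In old against young skin, where 15.1% of all genes were called and 7.32% were lower, some genes around glycolysis were called. Nothing particular to any list is read from its count. The summed skeletal muscle genes had a lower median in old skin (15016 CPM against 42649.6). Estimates of the genes below with the muscle sum as a covariate are not reported here, so the part of muscle RNA is not given. Of 7 pentose phosphate genes tested, 2 were lower and 0 higher. These were tkt, a transketolase (-0.83 ± 0.24, adjusted p = 0.025, log2 fold change ± SE by edgeR), and pgls (-0.56 ± 0.13, adjusted p = 0.0066). Of 14 genes of the pyruvate dehydrogenase complex and its kinases, 4 were lower and 0 higher, among them dldh (-0.62 ± 0.13, adjusted p = 0.003) and dlat (-0.70 ± 0.18, adjusted p = 0.012), both parts of the complex, and the kinase pdk4 (-1.54 ± 0.34, adjusted p = 0.0049), which inhibits it. Of 22 hypoxia response genes 5 were lower and 0 higher, with ankrd37 (-2.68 ± 0.53, adjusted p = 0.0021), epas1a (-1.15 ± 0.23, adjusted p = 0.0027) and vegfaa, a growth factor of blood vessels (-0.92 ± 0.25, adjusted p = 0.015). Mean ankrd37 at 6 months, 1.91 ± 2.41 CPM (SD, n = 5), had an SD above the mean. The lactate transporter gene slc16a3 was lower (-1.33 ± 0.39, adjusted p = 0.024), as was SLC16A8 (-1.082 ± 0.29, adjusted p = 0.015), with 2 of 11 transporter genes lower and 0 higher. Of 16 glycogen genes 3 were lower, led by phkg1b (-1.62 ± 0.25, adjusted p = 0.00039) and gyg2 (-1.33 ± 0.32, adjusted p = 0.0089), and 1 higher, the phosphorylase pygb (0.50 ± 0.14, adjusted p = 0.018). Of 8 gluconeogenesis genes 2 were lower, fbp2, the muscle form (-1.47 ± 0.45, adjusted p = 0.029), and pc (-1.99 ± 0.64, adjusted p = 0.038), whose mean at 6 months, 0.612 ± 0.753 CPM, also had an SD above it.

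In brain, where 19.6% of all genes and none of the 10 glycolysis genes were called between old and young fish, 2 of 10 transporter genes were lower, SLC16A8 (-1.54 ± 0.35, adjusted p = 0.0037) and slc16a1 (-0.50 ± 0.13, adjusted p = 0.0098), and 1 higher, slc2a12 (0.57 ± 0.14, adjusted p = 0.0061). Of 22 hypoxia response genes 4 were lower, led by epas1b (-0.84 ± 0.15, adjusted p = 0.00064) and hif1al (-1.03 ± 0.21, adjusted p = 0.0017), and 1 higher, ndrg1a (0.94 ± 0.19, adjusted p = 0.0016). Of 14 pyruvate dehydrogenase genes 2 were lower, pdk4 (-1.13 ± 0.21, adjusted p = 0.00087) and dlat (-0.22 ± 0.06, adjusted p = 0.02). Also called were phkg1a (-0.59 ± 0.14, adjusted p = 0.0057), phkg1b (0.56 ± 0.17, adjusted p = 0.02) and gyg1a (0.18 ± 0.06, adjusted p = 0.035) among glycogen genes, taldo1 (-0.45 ± 0.14, adjusted p = 0.03) of the pentose phosphate pathway and pc (-0.99 ± 0.34, adjusted p = 0.04) of gluconeogenesis.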
